A study of Mus musculus with 5 samples.

Results

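The genes of the TGF-beta, BMP and Nodal pathway were taken as a list of 46 genes, and every ChIP-seq peak that the deposited lists name for one of them was collected. The list holds 12 ligands, 11 receptors, 6 signal-carrying Smads, 6 inhibitors inside the cell, 7 inhibitors outside the cell and 4 target genes. All 46 were found among the 21924 protein-coding genes of the annotation, and 45 had at least 1 peak in at least 1 list. Chrd, which encodes the secreted BMP antagonist chordin, had no peak in any of the 3 lists, as had 30.3% of all protein-coding genes.

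The peaks came from CP cells, the cardiac progenitor stage of differentiation of the mouse embryonic stem cell line 46C. The medium held ascorbic acid throughout, with hBMP4, hActivin A and VEGF added in its second step and VEGF, FGF10 and bFGF in its last. The groups were hnRNPA1 ChIP in Zhx1-KO cells, ZHX1 ChIP in 46C-Ctrl cells and hnRNPA1 ChIP in 46C-Ctrl cells, with 1 library each. Both lines passed through the same BMP4 and activin A treatment, so no group shows these genes without it. The Zhx1-KO line was made by CRISPR/Cas9 with guides at the start and the stop of Zhx1, and how many clones it stands for is not given in the sources used here. ZHX1 carries zinc fingers and homeoboxes and has been described as a transcriptional repressor, while hnRNPA1 binds RNA and is known for its part in splicing. The paper on these cells reports that ZHX1 and hnRNPA1 together activate genes at the CP stage. It also reports that loss of Zhx1 weakened hnRNPA1 binding across the genome, from averaged ChIP-seq signal and counts of bound genes. Its ChIP assays at single promoters showed less hnRNPA1 at Mef2c and Src. The deposited Zhx1-KO hnRNPA1 peak list is the longest of those used here, which runs against that report. Peak number and averaged signal are different measures, and how they relate was not tested. Without replicates no difference between lists could be tested, and all intervals cover counting error only.

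Ligands of this family are secreted dimers that bring together type I and type II serine/threonine kinase receptors on the cell surface. TGF-beta, activin and Nodal receptors phosphorylate Smad2 and Smad3, BMP receptors phosphorylate Smad1, Smad5 and Smad9, and both classes enter the nucleus with the shared partner Smad4. Smad6, Smad7, the Smurf ubiquitin ligases and the repressors Ski and Skil damp the signal inside the cell, while Noggin, Gremlin, Follistatin, Lefty and Cerberus bind ligands or their co-receptors outside it. In the embryo Nodal and activin signals drive formation of mesoderm and endoderm, BMP signals then help to specify cardiac mesoderm, and the Id genes are classical BMP targets. The paper on these cells states that it did not establish an exact link of Zhx1 to the Smad2 and Smad3 pathway. Its supplement reports no effect of Zhx1 on that pathway. The evidence was TGF-beta gene set analysis after knockout, and blots of phosphorylated and total Smad2 and Smad3 after knockout and overexpression. Peaks do not measure signalling, which was not tested here. The comparison here asked where hnRNPA1 peaks lie at these genes when Zhx1 is lost. It also asked how ZHX1 and hnRNPA1 peaks lie to each other in control cells.

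The list of Zhx1-KO hnRNPA1 held 51545 peaks, that of 46C-Ctrl ZHX1 23244 and that of 46C-Ctrl hnRNPA1 14662. The lists carry neither scores nor read counts, so depth is unknown and peak width is the only measure of a single peak. For Zhx1 itself, the Zhx1-KO hnRNPA1 list held 1 peak at -2.72 kb from the 5′ end, upstream of the gene, and the 46C-Ctrl ZHX1 list 1 intron peak. A peak outside the targeted gene does not check the knockout. Markers of the labelled cell type could not be read, since peaks are not expression.

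The pathway genes held 148 peaks in Zhx1-KO hnRNPA1, 71 in 46C-Ctrl ZHX1 and 44 in 46C-Ctrl hnRNPA1. These are 0.287% (Wilson 95% interval 0.244 to 0.337%), 0.305% (0.242 to 0.385%) and 0.300% (0.224 to 0.403%) of their lists, 3 shares whose intervals overlap. The ratio of Zhx1-KO to 46C-Ctrl hnRNPA1 peaks was 3.36 at the pathway genes (exact 95% interval 2.39 to 4.82) and 3.52 over the whole lists. The ratio of ZHX1 to hnRNPA1 peaks in 46C-Ctrl cells was 1.61 at the pathway genes (1.09 to 2.41) and 1.59 over the whole lists. The larger number in Zhx1-KO cells at these genes was thus of the size of the difference in list length.

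Counted by gene, 43 of the 46 had a Zhx1-KO hnRNPA1 peak (93.5%), beside 57.7% of all protein-coding genes. A 46C-Ctrl ZHX1 peak was named for 26 (56.5%, beside 40.5%) and a 46C-Ctrl hnRNPA1 peak for 25 (54.3%, beside 31.2%). These genes stand in wide gene-poor surroundings. The stretch of genome nearer to a start site of the gene than to that of any other protein-coding gene had a median of 151 kb for the pathway genes and 45.1 kb for all protein-coding genes. Per Mb of that stretch, with peaks assigned by the deposited name, the pathway genes held 13.4 Zhx1-KO hnRNPA1 peaks, 6.43 46C-Ctrl ZHX1 peaks and 3.98 46C-Ctrl hnRNPA1 peaks, beside 14.8, 6.71 and 4.23 over all protein-coding genes in the same order of lists. Of 61 other genes of the pathway, 41 had a Zhx1-KO hnRNPA1 peak, 27 a 46C-Ctrl ZHX1 peak and 28 a 46C-Ctrl hnRNPA1 peak, and their median stretch was 52.2 kb. With peaks assigned to the nearest start site instead, as the stretch itself is defined, the 46 genes held 21, 10.7 and 5.88 peaks per Mb, beside 18.9, 8.53 and 5.38 over all protein-coding genes. The number of peaks per Mb was thus below that of all genes by name and above it by nearest start site, and the part of the stretch in the share of genes with a peak was not tested.

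**Figure D1:**
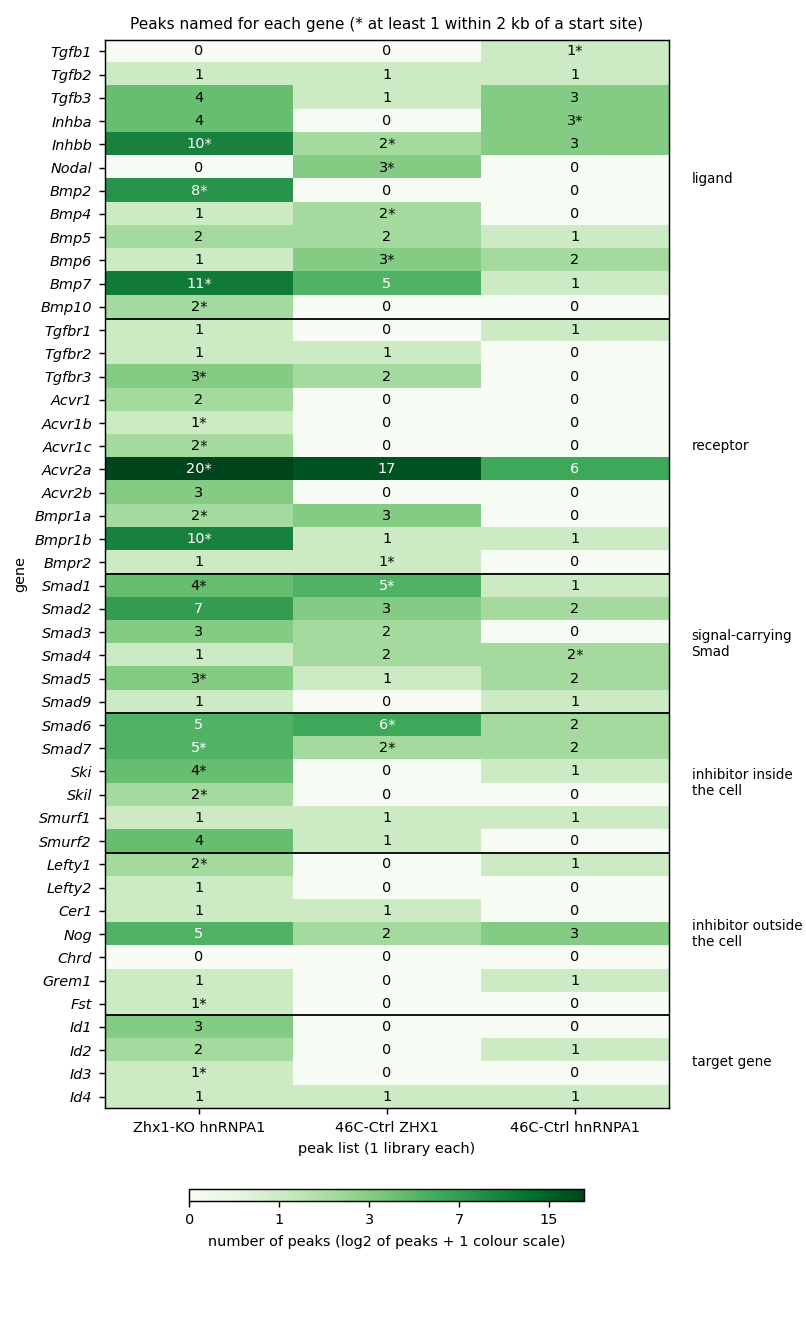
Number of peaks named for each of the 46 genes (rows, grouped by role) in the 3 peak lists (columns, 1 library each), with an asterisk where at least 1 peak centre lies within 2 kb of a start site of the gene. Acvr2a had the most peaks in every list (20, 17 and 6), Nodal had peaks in the 46C-Ctrl ZHX1 list only, and Chrd had none.

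Zhx1-KO hnRNPA1 peaks were found at the start of a larger share of the pathway genes than of all genes. A promoter peak, with its centre within 2 kb of the start site (TSS) of any annotated transcript of the gene it is named for, was found at 18 pathway genes in Zhx1-KO hnRNPA1 (39.1%, beside 15.9% of all protein-coding genes). It was found at 8 in 46C-Ctrl ZHX1 (17.4%, beside 8.85%) and at 3 in 46C-Ctrl hnRNPA1 (6.52%, beside 4.77%). The ratio of Zhx1-KO to 46C-Ctrl hnRNPA1 was 6.0 for pathway genes (exact 95% interval 1.75 to 31.8) and 3.34 for all protein-coding genes, a value inside that interval. The 3 genes in 46C-Ctrl hnRNPA1 were Tgfb1, Smad4 and Inhba. A promoter peak in Zhx1-KO hnRNPA1 and in neither control list was found at 15 genes (32.6%, beside 12.7%). As a share of peaks rather than of genes, 13.5% of the Zhx1-KO hnRNPA1, 11.3% of the 46C-Ctrl ZHX1 and 6.82% of the 46C-Ctrl hnRNPA1 peaks of the pathway genes were promoter peaks, beside 9.81, 11.3 and 9.48% for all protein-coding genes. The Wilson 95% intervals were 8.92 to 20.0%, 5.82 to 20.7% and 2.35 to 18.2%, and each held the share for all protein-coding genes. When each list was reduced to its 14662 widest peaks, 6 pathway genes still showed a promoter peak in Zhx1-KO hnRNPA1 (13%, beside 5.37%), 6 in 46C-Ctrl ZHX1 (13%, beside 5.91%) and 3 in 46C-Ctrl hnRNPA1.

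Within 1 kb of the 5′ end of the gene itself, a window chosen after the positions were seen, Zhx1-KO hnRNPA1 had peaks at 13 pathway genes, which is 28.3% beside 7.18% of all protein-coding genes. They were the receptors Acvr1b, Acvr2a, Bmpr1a and Bmpr1b, Smad1, Smad5 and Smad7, the repressor Skil, the ligands Inhbb, Bmp2 and Bmp7, the target gene Id3 and the antagonist Fst. In 46C-Ctrl ZHX1 there were 3 such genes, Bmpr2, Smad6 and Nodal (6.52%, beside 3.65%). In 46C-Ctrl hnRNPA1 there were 0 of 46, which allows a share of up to 6.52% (3 counts of 46), and the background was 1.40%.

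The 14 Zhx1-KO hnRNPA1 peaks at these 5′ ends (Inhbb had a pair of them) lay mostly inside the gene, 12 downstream and 2 upstream of the 5′ end, with a median position of 342 bp downstream. Over all protein-coding genes 78.8% of such peaks lay downstream. They were rich in GC, with a median of 73.2% (53 to 82.9%), against 49.2% for the 134 other Zhx1-KO hnRNPA1 peaks of the pathway genes and 66.7% for all peaks of that list at 5′ ends. The CpG observed over expected ratio had a median of 0.89 at the 5′ ends and 0.19 elsewhere. All 14 had a copy number of 1, the median count in the genome of the 32-base words of a peak.

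The sequences under 5 of these peaks, at 2 receptors, a ligand, a repressor and an antagonist, are shown because this base composition is what most of the 5′ end peaks shared. All 5 lie in an intron or upstream of the gene. They are from GRCm38, plus strand, with every CG in capitals.
Acvr1b, chr15:101174347-101174570: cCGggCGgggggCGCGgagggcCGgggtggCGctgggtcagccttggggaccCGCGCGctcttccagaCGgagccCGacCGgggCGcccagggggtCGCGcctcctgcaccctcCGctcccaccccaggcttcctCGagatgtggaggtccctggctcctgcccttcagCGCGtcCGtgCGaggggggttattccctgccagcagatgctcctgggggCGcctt
Bmpr1b, chr3:142168829-142169060: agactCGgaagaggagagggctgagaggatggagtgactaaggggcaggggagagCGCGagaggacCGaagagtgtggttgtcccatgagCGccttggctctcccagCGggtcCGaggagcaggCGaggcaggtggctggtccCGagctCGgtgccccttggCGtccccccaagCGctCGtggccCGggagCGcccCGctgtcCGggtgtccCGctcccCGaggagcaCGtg
Bmp7, chr2:172939334-172939575: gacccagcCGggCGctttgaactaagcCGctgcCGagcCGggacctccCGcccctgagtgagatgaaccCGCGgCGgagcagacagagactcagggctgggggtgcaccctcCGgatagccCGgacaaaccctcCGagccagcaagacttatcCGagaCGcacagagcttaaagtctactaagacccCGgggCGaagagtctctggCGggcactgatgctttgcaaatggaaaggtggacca
Skil, chr3:31095172-31095461: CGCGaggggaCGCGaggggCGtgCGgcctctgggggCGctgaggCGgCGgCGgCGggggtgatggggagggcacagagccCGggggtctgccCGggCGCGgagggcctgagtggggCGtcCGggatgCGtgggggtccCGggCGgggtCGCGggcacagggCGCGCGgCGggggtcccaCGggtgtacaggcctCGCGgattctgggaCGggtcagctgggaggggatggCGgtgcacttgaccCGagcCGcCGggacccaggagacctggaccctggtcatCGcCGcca
Fst, chr13:114459126-114459349: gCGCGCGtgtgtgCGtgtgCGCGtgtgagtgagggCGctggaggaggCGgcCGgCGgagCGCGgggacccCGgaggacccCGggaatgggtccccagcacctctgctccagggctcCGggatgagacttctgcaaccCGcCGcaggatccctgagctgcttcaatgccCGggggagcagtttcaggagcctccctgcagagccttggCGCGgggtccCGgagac
The Skil peak held 36 CG in 290 bases, the Acvr1b peak 22 in 224 bases and the Fst peak, 0.287 kb upstream of the gene, 21 in 224 bases. The Bmpr1b peak held 20 CG in 232 bases and the Bmp7 peak 17 in 242 bases.

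Starts of this kind were common among the pathway genes. Of the 46, 32 (69.6%) had a CpG-rich start, defined as at least 50% GC and a CpG ratio of at least 0.6 in the 250 bases before and 50 bases after the 5′ end, beside 41.3% of all protein-coding genes. All 12 Smads and intracellular inhibitors had one, as did 10 of the 11 receptors, 5 of the 12 ligands, 4 of the 7 inhibitors outside the cell and 1 of the 4 target genes. Among genes with a CpG-rich start, 12 of 32 pathway genes had a Zhx1-KO hnRNPA1 peak within 1 kb of the 5′ end (37.5%), beside 10.3% of all such genes. In 46C-Ctrl ZHX1 the shares were 6.25% and 5.28%, and in 46C-Ctrl hnRNPA1 0 of 32 and 1.54%. The 61 other genes of the pathway, among them further Gdf and Bmp ligands, co-receptors and extracellular modulators, included 27 with a CpG-rich start and gave 14.8% in Zhx1-KO hnRNPA1, 7.41% in 46C-Ctrl ZHX1 and 3.70% in 46C-Ctrl hnRNPA1 under the same limit. In the same 250 bases before and 50 after the 5′ end, the 13 pathway genes with such a Zhx1-KO hnRNPA1 peak had a median GC of 70.0% (45.0 to 80.3%). The 33 without had 66.7% (42.0 to 88.3%). The part of base composition in the Zhx1-KO count beyond the split by CpG-rich start was not tested.

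**Figure D2:**
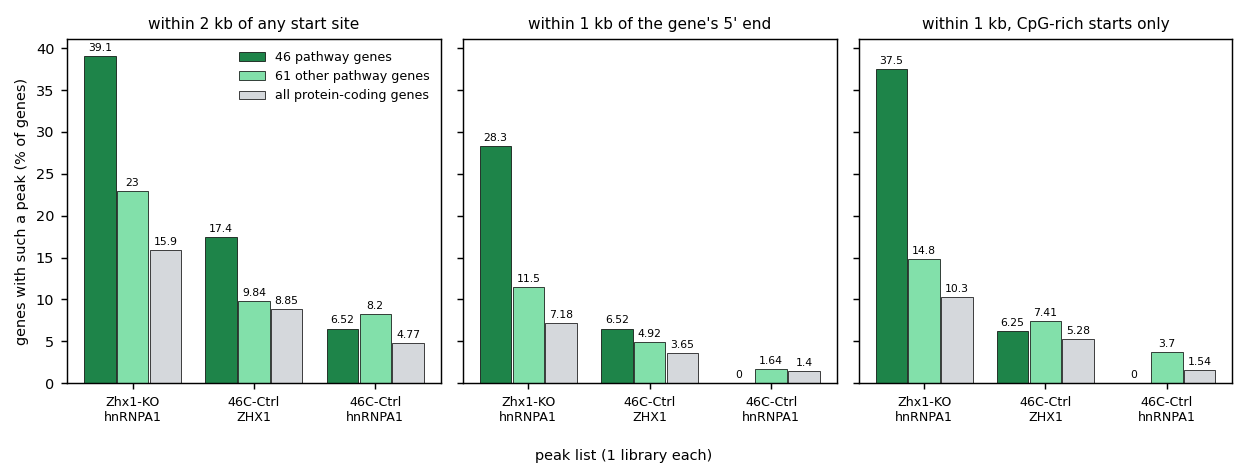
Percentage of genes with a peak near their start in each list (1 library each), for the 46 pathway genes, the 61 other pathway genes and all protein-coding genes, within 2 kb of any start site (left), within 1 kb of the 5′ end (middle) and within 1 kb of the 5′ end for CpG-rich starts only (right). The Zhx1-KO hnRNPA1 bars of the 46 genes stand at 39.1, 28.3 and 37.5%, beside 15.9, 7.18 and 10.3% of all protein-coding genes.

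**Figure D3:**
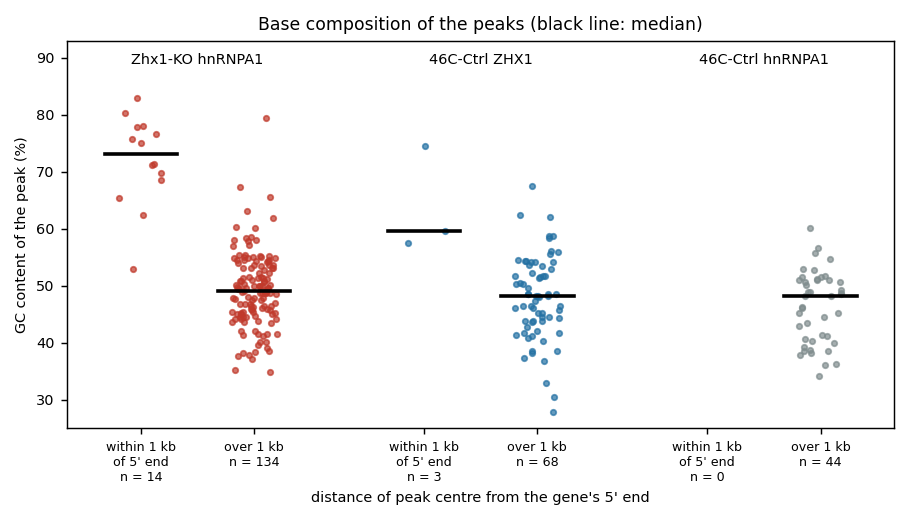
GC content (%) of every peak at the 46 genes, divided by distance of the peak centre from the 5′ end of the gene, with 1 point per peak and a black line at the median. The 14 Zhx1-KO hnRNPA1 peaks at 5′ ends have a median of 73.2%, the 134 others 49.2%, and 46C-Ctrl hnRNPA1 has no peak within 1 kb of a 5′ end.

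The ligands held 44 peaks in Zhx1-KO hnRNPA1, 19 in 46C-Ctrl ZHX1 and 15 in 46C-Ctrl hnRNPA1. Inhbb, which encodes the beta B chain of activin, had 10 peaks in Zhx1-KO hnRNPA1, 2 in 46C-Ctrl ZHX1 and 3 in 46C-Ctrl hnRNPA1. In Zhx1-KO hnRNPA1 one Inhbb peak spanned the 5′ end itself (chr1:119421956-119422345, centre 0.0970 kb inside) and another lay 0.568 kb inside, both in the UTR. The 46C-Ctrl ZHX1 peak nearest to them (chr1:119420364-119420651) lay in the intron, 916 bp away from the second, and the 46C-Ctrl hnRNPA1 peaks lay beyond the gene, 32 to 71.9 kb from its 5′ end. Inhba, the beta A chain, had 4 peaks in Zhx1-KO hnRNPA1, 0 in 46C-Ctrl ZHX1 and 3 in 46C-Ctrl hnRNPA1. One of the 3 lay 3.92 kb into the gene, 1.30 kb from an internal start site (chr13:16015655-16015894), and another, at chr13:15966904-15967423 in sequence with many copies, was the widest 46C-Ctrl hnRNPA1 peak of the pathway at 520 bp.

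Nodal, the ligand that drives primitive streak and mesoderm formation, had 3 peaks, all of them in 46C-Ctrl ZHX1. They lay 0.687 kb into the first part of the gene in an intron, 5.06 kb in over a coding exon (chr10:61422916-61423143) and 13.4 kb from the 5′ end, beyond the gene (chr10:61431221-61431457). None of the 3 was wide, with 228, 228 and 237 bp, where 228 bp is the narrowest width in that list. The share of all protein-coding genes with peaks in that list only was not counted. The intron peak is shown with its CG in capitals, as the only ligand peak of the ZHX1 list within 1 kb of a 5′ end.
Nodal, chr10:61418545-61418772: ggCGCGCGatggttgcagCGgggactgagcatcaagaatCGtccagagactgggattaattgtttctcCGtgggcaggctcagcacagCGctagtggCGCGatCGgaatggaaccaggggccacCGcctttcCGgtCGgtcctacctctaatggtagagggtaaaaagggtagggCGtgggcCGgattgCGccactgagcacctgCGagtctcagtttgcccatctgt
It held 17 CG in 228 bases and 1 TAGGG, the DNA form of the core site that hnRNPA1 binds in RNA. TAGGG stood on either strand within the central 200 bases of 25.4% of the 46C-Ctrl ZHX1 peaks at the pathway genes and of 25.7% in the whole list.

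Among the BMP ligands, Bmp7 had 11 peaks in Zhx1-KO hnRNPA1, 5 in 46C-Ctrl ZHX1 and 1 in 46C-Ctrl hnRNPA1, spread over 191 kb downstream to 19.2 kb upstream of its 5′ end. Bmp2, a BMP with known roles in heart cushion formation, had 8, 0 and 0 peaks in the same order of lists. One Bmp2 peak lay over the UTR 0.541 kb from the 5′ end (chr2:133552445-133552954, 510 bp), and the other 7 lay 105 to 293 kb upstream, 3 of them with more than 1 copy in the genome. Bmp10, a ligand made in heart muscle, had 2, 0 and 0 peaks, one of them 1.89 kb into the gene (chr6:87430742-87431026). For Bmp4 and Bmp6 the promoter peak was a 46C-Ctrl ZHX1 peak in an intron, 1.62 kb (chr14:46388923-46389168) and 1.63 kb (chr13:38346587-38346881) from the 5′ end. Bmp4 had 1, 2 and 0 peaks in all, Bmp5 2, 2 and 1, and Bmp6 1, 3 and 2.

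The TGF-beta ligands held few peaks near their starts. Tgfb1 had a single peak, in 46C-Ctrl hnRNPA1, 6.39 kb into the gene in an intron and 0.978 kb from an internal start site (chr7:25693231-25693560). Tgfb2 had 1 peak in each list, 64.6 kb and 30.4 kb into the gene and 10.0 kb upstream of it. Tgfb3 had 4 peaks in Zhx1-KO hnRNPA1, 1 in 46C-Ctrl ZHX1 and 3 in 46C-Ctrl hnRNPA1, all beyond the gene, 45.6 to 123 kb from the 5′ end. The Tgfb3 peaks at chr12:85986166-85986837 in Zhx1-KO hnRNPA1 (672 bp) and at chr12:86011416-86011974 in 46C-Ctrl ZHX1 (559 bp) were each the second widest of the pathway in their list.

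**Figure D4:**
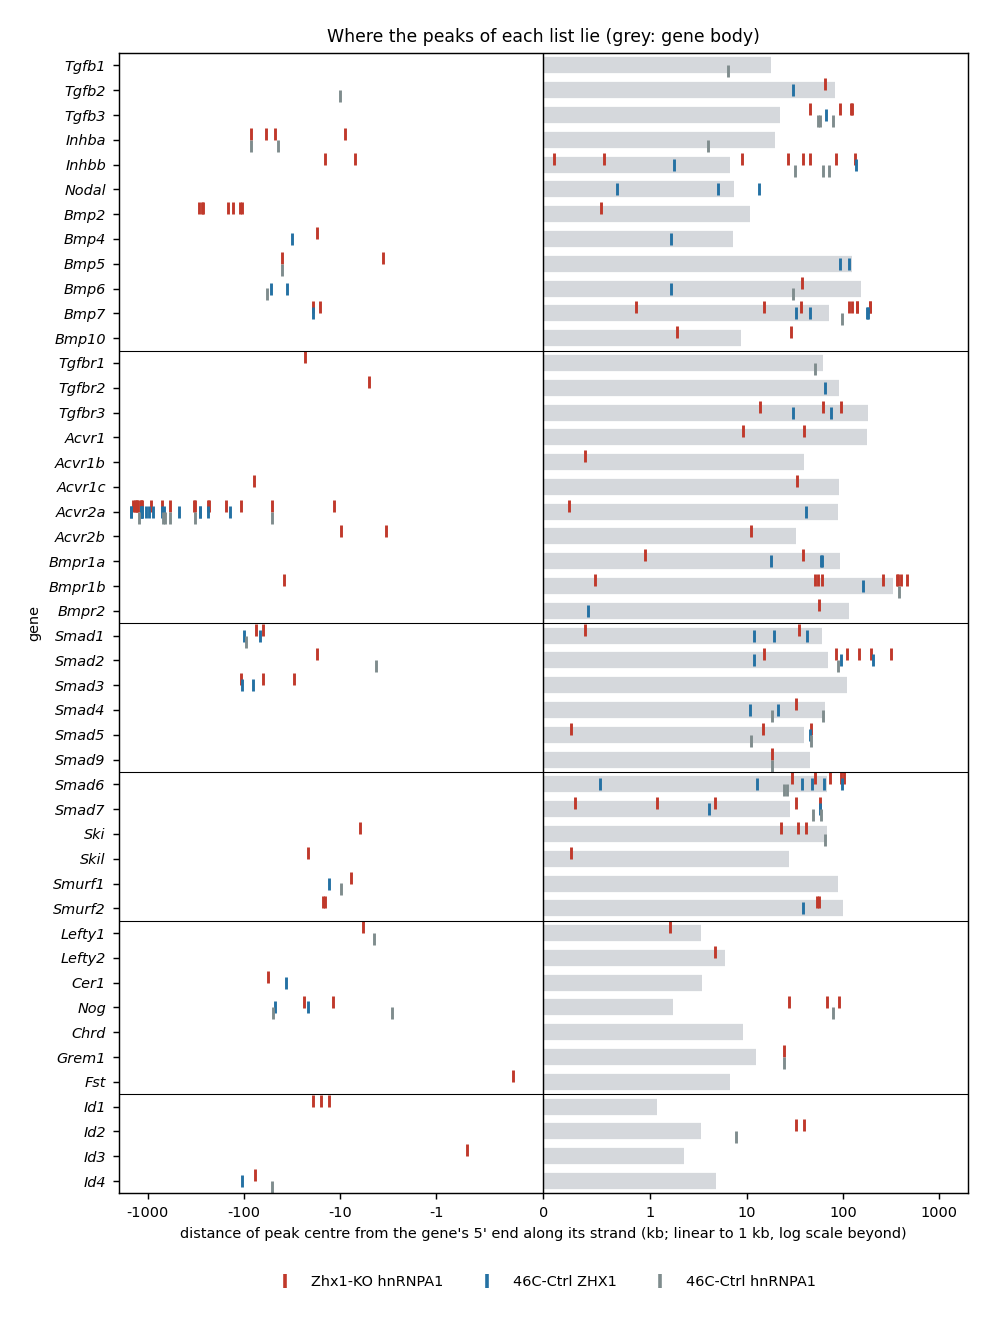
Distance of each peak centre from the 5′ end of its gene along the gene's strand (kb, linear to 1 kb and logarithmic beyond), 1 row per gene, with ticks for the 3 lists and the gene body in grey. Zhx1-KO hnRNPA1 ticks stand within 1 kb of the zero line at 13 genes and 46C-Ctrl ZHX1 ticks at 3, and the Acvr2a row reaches 1497 kb upstream.

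The receptors held 46 peaks in Zhx1-KO hnRNPA1, 25 in 46C-Ctrl ZHX1 and 8 in 46C-Ctrl hnRNPA1, and 20, 17 and 6 of these were named for Acvr2a, an activin type II receptor. Of the Acvr2a peaks 17, 16 and 5 lay over 100 kb upstream, as far as 1404, 1497 and 1219 kb, in a gene-poor stretch of 1934 kb where its start is the nearest. Per Mb of that stretch Acvr2a held 10.3, 8.79 and 3.10 peaks by name in the same order of lists, beside 14.8, 6.71 and 4.23 for all protein-coding genes, and the part of the length in its counts was not tested. Of its 20, 17 and 6 peaks, 9, 7 and 3 lay in repeated sequence, that is, with a median copy number of at least 2. Only 1 Acvr2a peak stood at the gene's start, in Zhx1-KO hnRNPA1, over the UTR 0.236 kb from the 5′ end (chr2:48814135-48814554). Without Acvr2a the receptors held 26, 8 and 2 peaks.

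With Acvr2a included, 11 of 11 receptors had a peak in Zhx1-KO hnRNPA1, 6 of 11 in 46C-Ctrl ZHX1 and 3 of 11 in 46C-Ctrl hnRNPA1, beside 57.7, 40.5 and 31.2% of all protein-coding genes. Acvr1, Acvr1b, Acvr1c and Acvr2b, receptors for BMP, activin and Nodal, had 2, 1, 2 and 3 peaks in Zhx1-KO hnRNPA1 and none in the control lists. A Zhx1-KO hnRNPA1 peak without any control peak was thus found at 4 of 11 receptors (36.4%), beside 18% of all protein-coding genes. The Zhx1-KO hnRNPA1 list was also the longest. One of the 2 Acvr1 peaks (chr2:58557955-58558230) lay in repeated sequence, with a median copy number of 1114. The Acvr1b peak lay 0.392 kb into the gene (chr15:101174347-101174570) and an Acvr1c peak 0.397 kb from an internal start site (chr2:58324293-58324526), both in introns. Bmpr1b, a BMP type I receptor, had 10 peaks in Zhx1-KO hnRNPA1, 1 in 46C-Ctrl ZHX1 and 1 in 46C-Ctrl hnRNPA1. The Zhx1-KO hnRNPA1 peak at its start was at chr3:142168829-142169060. The 46C-Ctrl ZHX1 peak of Bmpr1b (chr3:142008718-142008945) lay in repeated sequence, with a median copy number of 16793. Bmpr1a had 2, 3 and 0 peaks, and Bmpr2, the BMP type II receptor, had 1, 1 and 0. The Bmpr2 peak of 46C-Ctrl ZHX1 covered the UTR 0.418 kb from the 5′ end (chr1:59763629-59764006, GC 74.6%), the only receptor start with a ZHX1 peak. Tgfbr1 had 1, 0 and 1 peaks, Tgfbr2 1, 1 and 0, and the co-receptor Tgfbr3 3, 2 and 0, with one of the 3 lying 1.76 kb from an internal start site (chr5:107193949-107194305).

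The signal-carrying Smads held 19 peaks in Zhx1-KO hnRNPA1, 13 in 46C-Ctrl ZHX1 and 8 in 46C-Ctrl hnRNPA1. Smad2, which carries TGF-beta, activin and Nodal signals, had 7, 3 and 2 peaks, none within 2 kb of a start site. Its Zhx1-KO hnRNPA1 peak at chr18:76324902-76325594, 83.7 kb from the 5′ end and beyond the gene, was the widest of the pathway in that list at 693 bp. The nearest 46C-Ctrl hnRNPA1 peak to the Smad2 start lay 4.21 kb upstream (chr18:76237149-76237588). Smad3 had 3, 2 and 0 peaks, all 29.9 to 108 kb upstream of it and none in the gene. The common partner Smad4 had 1, 2 and 2, all in introns, and the 46C-Ctrl hnRNPA1 peak at chr18:73640947-73641272 lay 1.45 kb from an internal start site. Both 46C-Ctrl ZHX1 peaks of Smad4 lay in repeated sequence, with median copy numbers of 12590 and 23. So did its other 46C-Ctrl hnRNPA1 peak, with 3805.

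For the BMP Smads, Smad1 had 4 peaks in Zhx1-KO hnRNPA1, 5 in 46C-Ctrl ZHX1 and 1 in 46C-Ctrl hnRNPA1. Its Zhx1-KO hnRNPA1 peak at the start (chr8:79398829-79399422) was 594 bp wide with 75.8% GC, and a 46C-Ctrl ZHX1 peak (chr8:79357473-79357700) lay 0.909 kb from an internal start site. Smad5 had 3, 1 and 2 peaks, and Smad9 had 1, 0 and 1. Smad5 and Smad9 were the signal-carrying Smads at which Zhx1-KO and 46C-Ctrl hnRNPA1 peaks overlapped, as described with the shared sites.

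The inhibitors inside the cell held 21 peaks in Zhx1-KO hnRNPA1, 10 in 46C-Ctrl ZHX1 and 6 in 46C-Ctrl hnRNPA1. Any peak that overlapped a gene body was counted for density, whatever its name. The bodies of these 6 genes held 39.1 Zhx1-KO hnRNPA1 peaks, 28.7 46C-Ctrl ZHX1 peaks and 7.82 46C-Ctrl hnRNPA1 peaks per Mb, beside 21.1, 9.86 and 6.29 for all protein-coding gene bodies. The bodies of all 46 genes held 20.2, 14.6 and 4.86 per Mb, and those of the receptors 14.5, 7.65 and 1.53. For the 6 inhibitors the counts were 15, 11 and 3 peaks in 0.383 Mb. Smad6, which blocks BMP receptor signalling, had 5, 6 and 2 peaks and was the gene with the most ZHX1 peaks after Acvr2a. One of the 6 (chr9:64021191-64021874) covered the UTR 0.526 kb from the 5′ end and was the widest ZHX1 peak of the pathway at 684 bp, against a list median of 259 bp.

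Smad7, the inhibitor of TGF-beta and BMP receptors, had 5 peaks in Zhx1-KO hnRNPA1, 2 in 46C-Ctrl ZHX1 and 2 in 46C-Ctrl hnRNPA1. Of the 5, 2 lay in the UTR at the start, 0.292 kb (chr18:75367699-75367942) and 1.17 kb (chr18:75368549-75368840) from the 5′ end, with 76.6 and 79.5% GC. A Zhx1-KO hnRNPA1 peak in the Smad7 intron (chr18:75372063-75372286) lay 284 bp from a 46C-Ctrl ZHX1 peak (chr18:75371329-75371778, 450 bp). Peaks of all 3 lists stood beside each other beyond the gene, 57.2 kb (chr18:75424540-75424839, Zhx1-KO hnRNPA1), 58.0 kb (chr18:75425320-75425765, 46C-Ctrl ZHX1) and 58.6 kb (chr18:75425984-75426206, 46C-Ctrl hnRNPA1) from the 5′ end, with gaps of 480 and 218 bp between neighbours.

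Ski, a repressor that binds Smads, had 4 peaks in Zhx1-KO hnRNPA1, 0 in 46C-Ctrl ZHX1 and 1 in 46C-Ctrl hnRNPA1. One of the 4 lay over an internal start site (chr4:155188143-155188375), and the 46C-Ctrl hnRNPA1 peak lay over a coding exon. Its relative Skil had 2, 0 and 0. Smurf1 had 1 peak in each list, all 7.67 to 13.0 kb upstream of it, and Smurf2 had 4, 1 and 0.

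Outside the cell, the inhibitors held 11 peaks in Zhx1-KO hnRNPA1, 3 in 46C-Ctrl ZHX1 and 5 in 46C-Ctrl hnRNPA1. Nog, which encodes the BMP antagonist Noggin, held 5, 2 and 3 of them, none in the gene. The nearest to its 5′ end was a 46C-Ctrl hnRNPA1 peak 2.90 kb upstream (chr11:89305106-89305348), and another of that list (chr11:89352019-89352460) was its second widest of the pathway at 442 bp. Lefty1, a Nodal inhibitor, had 2, 0 and 1 peaks. The Zhx1-KO hnRNPA1 peak over a Lefty1 coding exon (chr1:180936514-180936738) had a median copy number of 2, so most of its words stand in the genome more than once. Lefty2 had 1, 0 and 0 peaks, also over a coding exon. Cer1 had 1, 1 and 0, Grem1 1, 0 and 1, and Fst 1, 0 and 0.

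The Id target genes held 7 peaks in Zhx1-KO hnRNPA1, 1 in 46C-Ctrl ZHX1 and 2 in 46C-Ctrl hnRNPA1, all outside the genes. Id1 had 3, 0 and 0 peaks, 12.9 to 19.2 kb upstream. Id3 had 1, 0 and 0, and that peak (chr4:136142596-136142976) lay 0.711 kb upstream of its 5′ end with 53% GC, the lowest of the 14 peaks at 5′ ends. Id2 had 2, 0 and 1, and Id4 had 1 in each list, 50.6 to 105 kb upstream.

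Genes with peaks of both proteins in 46C-Ctrl cells numbered 17 (37.0%, beside 20.0% of all protein-coding genes). All 17 also had a Zhx1-KO hnRNPA1 peak, as had 3930 of the 4383 protein-coding genes with both control peaks. Peaks in all 3 lists were thus found at 37.0% of the pathway genes, beside 17.9% of all protein-coding genes. The 17 genes were Tgfb2, Tgfb3, Inhbb, Bmp5, Bmp6, Bmp7, Acvr2a, Bmpr1b, Smad1, Smad2, Smad4, Smad5, Smad6, Smad7, Smurf1, Nog and Id4. With single-copy peaks only, 14 genes had both control peaks (30.4%, beside 15.9%), and Bmp5, Bmpr1b and Smad4 were no longer among them. With gene bodies in place of the deposited names there were 4 (8.70%, beside 11.0%), so the excess over all genes depends on how peaks are assigned. No pathway gene had both control peaks and no Zhx1-KO hnRNPA1 peak, 0 of 46, which allows up to 6.52%, and the background was 2.07%. Only the 17 genes with both control peaks could count, so the 0 is 0 of 17 and allows 3 of 17. Over all protein-coding genes it was 453 of 4383. With all lists at 14662 peaks, 6 pathway genes had both control peaks and no Zhx1-KO hnRNPA1 peak (13%, beside 5.84%). The 0 thus depends on the length of the Zhx1-KO list. A Zhx1-KO hnRNPA1 peak without any control peak was found at 11 genes (23.9%, beside 18%), namely Acvr1, Acvr1b, Acvr1c, Acvr2b, Skil, Lefty2, Bmp2, Bmp10, Id1, Id3 and Fst.

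Having peaks of 2 lists at a gene seldom meant having them at the same place. Of the 71 46C-Ctrl ZHX1 peaks at the pathway genes, 0 overlapped a 46C-Ctrl hnRNPA1 peak by at least 1 bp, which allows up to 4.23% (3 counts of 71), beside 2.60% of all ZHX1 peaks. Zhx1-KO hnRNPA1 peaks overlapped 46C-Ctrl hnRNPA1 peaks in 7 pairs, 4.73% of the 148 (Wilson 95% interval 2.31 to 9.44%) and 15.9% of the 44 (7.93 to 29.4%), beside 1.26% and 4.41% in the whole lists. Among peaks with a copy number below 2 there were 3 pairs, 2.48% of 121 (0.847 to 7.04%) and 8.82% of 34 (3.05 to 23.0%), beside 0.577% and 1.81%. Zhx1-KO hnRNPA1 peaks overlapped 46C-Ctrl ZHX1 peaks in 4 pairs, 2.70% of the 148 and 5.63% of the 71, beside 1.99% and 4.42%.

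The 7 pairs shared by Zhx1-KO and 46C-Ctrl hnRNPA1 lay at Acvr2a (586 and 50.9 kb upstream), Smad5, Smad9, Inhba (85 kb upstream), Bmp5 (39.7 kb upstream) and Grem1 (24.7 kb from the 5′ end, beyond the gene). Those at Inhba, Bmp5, Grem1 and the far one at Acvr2a lay wholly in soft-masked repeats, with median copy numbers of 83 to 4565 in the Zhx1-KO peaks. The single-copy sites were the near Acvr2a site (chr2:48763135-48763338), Smad5 beyond its gene and Smad9 in an intron. Of the 4 pairs shared with ZHX1, 3 lay far upstream of Acvr2a (1145, 705 and 235 kb) in repeated sequence, and 1 lay 19.2 kb upstream of Bmp7 in single-copy sequence.

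The stretches common to both lists at the single-copy sites of Smad5 and Bmp7 are shown, from GRCm38, plus strand, as examples of overlap outside repeats. In them TAGGG or CCAAT on either strand is in capitals, CCAAT being the box bound by NF-Y.
Smad5, chr13:56749664-56749876: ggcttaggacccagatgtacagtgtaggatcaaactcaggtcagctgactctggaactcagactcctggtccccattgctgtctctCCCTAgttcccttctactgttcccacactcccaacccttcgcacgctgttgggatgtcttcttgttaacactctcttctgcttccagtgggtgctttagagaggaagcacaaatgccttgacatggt
Bmp7, chr2:172959393-172959632: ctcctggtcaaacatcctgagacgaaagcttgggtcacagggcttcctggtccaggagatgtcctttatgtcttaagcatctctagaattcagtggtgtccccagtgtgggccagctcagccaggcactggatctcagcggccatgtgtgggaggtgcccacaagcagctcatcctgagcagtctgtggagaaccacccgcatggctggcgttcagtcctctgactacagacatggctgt
The Smad5 stretch held 1 TAGGG, as CCCTA on this strand, and the Bmp7 stretch held neither motif. At the pathway genes TAGGG stood within the central 200 bases of 25.7% of Zhx1-KO hnRNPA1, 25.4% of 46C-Ctrl ZHX1 and 18.2% of 46C-Ctrl hnRNPA1 peaks, beside 25.9, 25.7 and 27.1% in the whole lists. CCAAT stood in 27, 21.1 and 22.7% at the pathway genes, beside 28.3, 27.4 and 27.2%. At Smad5 a 46C-Ctrl ZHX1 peak (chr13:56748809-56749124) lay 396 bp from the Zhx1-KO hnRNPA1 peak of that site and 539 bp from the 46C-Ctrl hnRNPA1 peak.

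**Figure D5:**
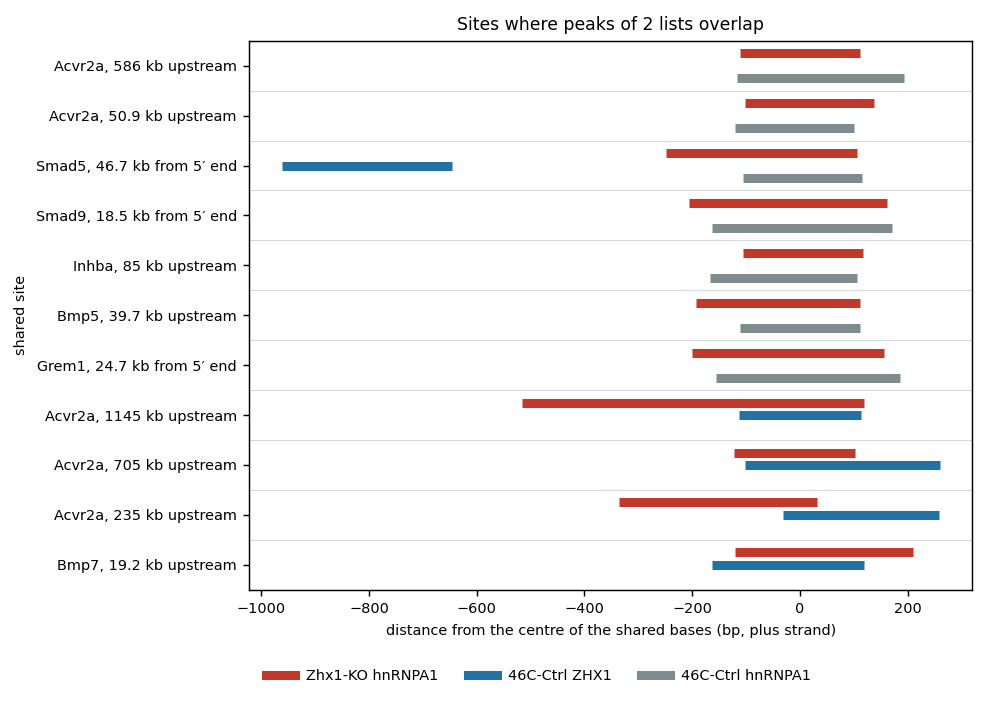
Peaks of the 3 lists at the 11 places where peaks of 2 lists overlap, drawn by distance in bp from the centre of the shared bases, with the gene and the distance from its 5′ end at the left. No place has overlapping peaks of all 3 lists, and at Smad5 a 46C-Ctrl ZHX1 peak stands 396 bp from the Zhx1-KO hnRNPA1 peak.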

How the data were processed

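ChIP-seq peak lists of CP cells were used for 3 of the 5 samples, and the 2 inputs were not analysed here. Adapters were cut by the authors with cutadapt 1.18 and reads under 50 bases discarded. Bowtie2 2.3.5.1 mapped the rest to GRCm38 (GENCODE M19), and reads that were PCR duplicates or mapped to several places were then taken out. A median copy number of at least 2 was still found for 16160 of 51545 Zhx1-KO hnRNPA1 peaks. It was found for 5861 of 23244 46C-Ctrl ZHX1 and 3584 of 14662 46C-Ctrl hnRNPA1 peaks. How such peaks arose was not tested. BWA 0.7.12-r1039 and deepTools 3.3.0 stand in the submitters' processing notes with no role. Which caller, threshold, background and naming tool gave the peaks is not given in the sources used here. The deposited lists give a start, an end and a gene name per peak, called per library, with no score. Starts were read as 0-based and printed 1-based.

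Groups came from sample titles. Peaks were assigned by the deposited name. Genes, start sites and features were from GENCODE M21 on GRCm38. Copy number was the median genome count of the 32-base words of a peak. Peaks per Mb of gene body counted any overlap. The members, roles and lists were chosen with earlier results of these data known. Positions are given for genes with a promoter peak, peaks of 2 lists overlapping or within 1 kb, the most peaks in a role, the 3 widest peaks per list, and some others chosen after their values were seen. Of the 13 genes with a Zhx1-KO peak at the 5′ end, printed sequences were chosen after they were seen. No sequence of chromosome 18 is shown. Alternatives were gene body or nearest start site in place of the name, the wider part of each list, equal list length, single-copy peaks, other promoter windows and other overlaps. Steps were tested on simulated data. Software was matplotlib 3.10.9, numba 0.67.0, numpy 2.4.6 and scipy 1.17.1 under Python 3.11.15.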

Additional observations from a re-analysis of the deposited data

How the results depend on the processing

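Of 94 values under alternatives, 53 stayed within 1.5 times the reported count and 41 did not. No paired analysis was possible because each group had 1 library. In each list the share of pathway genes with a peak stayed above that of all protein-coding genes in 6 of 6 settings, and so did that with a promoter peak in 9 of 9 settings for Zhx1-KO hnRNPA1 and 46C-Ctrl ZHX1, but in 6 of 9 for 46C-Ctrl hnRNPA1. List length, depth and threshold cannot be told apart from the knockout with 1 library each, and width is a weak stand-in for a score.

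Values that moved follow, in the order Zhx1-KO hnRNPA1, 46C-Ctrl ZHX1, 46C-Ctrl hnRNPA1 unless named. With gene bodies in place of the deposited names, 28 genes had a Zhx1-KO hnRNPA1 peak (60.9%, beside 42.3% of all protein-coding genes). A 46C-Ctrl hnRNPA1 peak was found at 11 (23.9%, beside 20.5%). Peaks were then 54, 39 and 13, and overlapping pairs of Zhx1-KO and 46C-Ctrl hnRNPA1 were 1. Genes with both control peaks were then 4 (8.70%, beside 11.0%), so this share turned from above to below that of all genes. With the nearest start site, peaks per Mb turned from below to above those of all genes in each list, a comparison chosen after seeing the data, and peaks were 232 (Zhx1-KO hnRNPA1) and 118 (46C-Ctrl ZHX1), and pairs of Zhx1-KO hnRNPA1 and 46C-Ctrl ZHX1 were 7. With the wider part of each list, genes with a peak were 17 (46C-Ctrl ZHX1, 37.0%, beside 26.3% of all protein-coding genes) and 15 (46C-Ctrl hnRNPA1, 32.6%, beside 19.3%). Peaks were then 75, 34 and 23. Genes with a promoter peak were then 10 (Zhx1-KO hnRNPA1, 21.7%, beside 8.92%) and 5 (46C-Ctrl ZHX1, 10.9%, beside 4.78%). Genes with both control peaks were 7 (15.2%, beside 9.65%). Pairs of Zhx1-KO hnRNPA1 with 46C-Ctrl hnRNPA1 and with 46C-Ctrl ZHX1 were 2 each. With equal list length, Zhx1-KO hnRNPA1 had 21 genes with a peak (45.7%, beside 30.4%), 40 peaks and 6 genes with a promoter peak (13.0%, beside 5.37%). Genes with peaks in both control lists but not in Zhx1-KO hnRNPA1 were 6 (13.0%, beside 5.84%). Pairs of Zhx1-KO hnRNPA1 with 46C-Ctrl hnRNPA1 and with 46C-Ctrl ZHX1 were 3 and 1. With single-copy peaks only, these pairs were 3 and 1. Promoter windows of 1 kb gave 5 genes (46C-Ctrl ZHX1, 10.9%, beside 6.08%) and 1 gene (46C-Ctrl hnRNPA1, 2.17%, beside 2.89%). Windows of 5 kb gave 6 (46C-Ctrl hnRNPA1, 13.0%, beside 9.22%), and the 5′ end only gave 0 (46C-Ctrl hnRNPA1, beside 2.51%). Within 1 kb of the 5′ end only, chosen after seeing the data, there were 3 (46C-Ctrl ZHX1, 6.52%, beside 3.65%) and 0 (46C-Ctrl hnRNPA1, beside 1.40%). Pairs of Zhx1-KO hnRNPA1 and 46C-Ctrl ZHX1 were 2 where at least 50% of both peaks had to be covered and 8 with centres within 1 kb, and pairs of 46C-Ctrl ZHX1 and hnRNPA1 were then 2. Without Acvr2a, chosen after seeing the data, pairs of Zhx1-KO hnRNPA1 and 46C-Ctrl ZHX1 were 1 and receptor peaks were 26, 8 and 2.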
